A study of Homo sapiens with 2 samples.

Results

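Type I and type V collagen are fibrillar collagens, and COL1A1, COL1A2 and COL5A1 each encode 1 of their chains. The contacts described here are the interactions, in 2 METTL3 HiChIP libraries of IMR90 cells, with an anchor that overlapped a fixed window around 1 of these 3 genes in hg19. The windows were chr17:48240001-48300000 for COL1A1, chr7:94010001-94070000 for COL1A2 and chr9:137530001-137740000 for COL5A1, so that the first and second spanned 60 kb each and the last 210 kb. In all 162 of 162611 listed interactions met this rule, 12 of 12221 in the control library and 150 of 150390 in the senescent library.

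IMR90 is an established line of human fibroblasts from embryonic lung, grown here at 2% oxygen and labelled as wild type in both groups. The senescent group, 1 library, came from cells with an inducible fusion of the estrogen receptor and H-RAS carrying the G12V change, a form of RAS that stays active. The control group was also 1 library, and whether its cells carried the fusion without induction is not given in the sources used here. HiChIP joins DNA ends that are close in the nucleus and then enriches for fragments bound by a protein, here METTL3, the catalytic subunit of the RNA m6A methyltransferase. Each listed interaction had 2 anchors and a count of paired-end tags (PETs), the sequenced molecules that joined them.

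Type I collagen is a triple helix of COL1A1 and COL1A2 chains and is the main fibre protein of the matrix that fibroblasts make. COL5A1 supplies a chain of type V collagen, which takes part in starting fibrils and in setting how thick they grow. Because the COL1A1 and COL1A2 chains are needed together while their genes lie on different chromosomes, the loci offer a comparison of genes with a joint product and separate surroundings. The contact tables hold no RNA, and the expression of these genes was not measured in them.

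Listed PETs numbered 14373 for control and 184165 for senescent cells, and these totals count listed interactions, not sequencing depth. With 1 library per group there is no replicate check and no test between groups, so every interval below is a 95% interval that covers counting error and nothing else. Duplicate PETs of 1 ligation product would leave the intervals too tight.

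COL1A1 and COL5A1 had more PETs in the senescent table, and COL1A2 had fewer. At COL1A1 the control library listed 1 PET in 1 interaction, and the senescent library listed 79 PETs (62.5 to 98.5, exact Poisson interval) in 46 interactions. At COL1A2 the control library listed 14 PETs (7.65 to 23.5) in 11 interactions and the senescent library 7 PETs (2.81 to 14.4) in 5. At COL5A1 the control library listed none, and the senescent library listed 109 PETs (89.5 to 131) in 99 interactions. COL1A2 was the only 1 of the 3 loci with more PETs in the control table, although that table was the smaller. That excess was small or gone with some other settings. It was 19 control against 17 senescent PETs in a window 20 kb wider on each side. For contacts of at least 2 PETs it was 5 against 4, and at a deposited value at or under 0.05 it was 2 against 2. It stayed at 14 against 7 with anchors assigned by midpoint and without anchors wider than 10 kb. In a window 10 kb narrower on each side it was 9 against 6, and for spans of at least 20 kb it was 5 against 3.

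**Figure D1:**
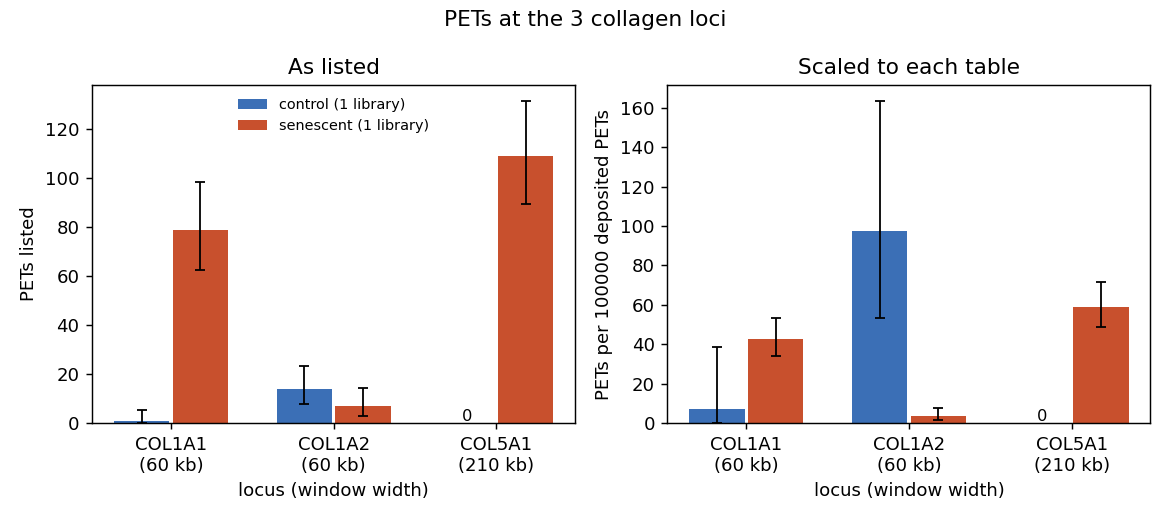
PETs at each locus in the control library (blue) and the senescent library (red), as listed (left) and per 100000 PETs of the table (right), with 1 library per group; bars start at 0 and whiskers are exact Poisson intervals for counting error. COL1A1 and COL5A1 stand at 79 and 109 senescent PETs against 1 and 0 in control, while COL1A2 stands at 7 against 14.

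Scaled to its table, COL1A1 had 6.96 control PETs and 42.9 senescent PETs per 100000, a ratio of 6.17 (1.07 to 247, exact conditional binomial interval). This ratio rests on a single control PET. Without scaling it was 79 (13.8 to 3159), and in a window 20 kb wider on each side it was 7.80 (1.37 to 311). Scaled to the PETs between anchors of both libraries it was 69.3 (12.1 to 2773). That scaling divides all PETs of the locus by the PETs between anchors that overlapped an anchor of the other library. Those totals were close, 8154 for control and 9291 for senescent cells, so its result stays near the unscaled ratio. The COL1A1 ratio was 2.16 (0.377 to 86.5) when scaled to the PETs of chromosome 17 and 1.59 (0.249 to 66.5) without anchors wider than 10 kb. The interval also held 1 with the window narrowed (4.21, 0.725 to 170) and with anchors assigned by midpoint (5.62, 0.977 to 225).

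For COL1A2 the scaled values were 97.4 control PETs per 100000 and 3.80 senescent PETs, 25.6 times lower (9.68 to 75.02). Scaled to the PETs of chromosome 7, the senescent to control ratio was 0.0549 (0.0188 to 0.145). Without scaling it was 0.50 (0.171 to 1.32), and scaled to the PETs between anchors of both libraries it was 0.439 (0.150 to 1.16). The lower senescent value is thus beyond counting error only when the tables are scaled to all PETs or to those of the chromosome.

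For COL5A1 the senescent library had 59.2 PETs per 100000 (48.6 to 71.4). The control table listed none, and no fold is given against it. At the senescent share, a table of the control size would hold 8.51 PETs there.

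The background was taken from 60 kb tiles along the autosomes and chromosome X, counted by the same rule. Among 11390 tiles with at least 10 PETs in sum, 62.2% had no control PET. A share at least 2-fold higher in the senescent library, with PETs in both libraries, was found for 4.13% of tiles, and COL1A1 belongs to this class. All 470 tiles of this class had at least 20 PETs in sum, and they were 7.83% of the 6001 tiles that full. Tiles with no control PET are not part of it. A share at least 2-fold higher in the control library was found for 18.1%. COL1A2 belongs to this class but lies far past its limit, at 25.6-fold. A lower senescent share was the usual state where the control library had any PET: over 4303 such tiles the median senescent to control ratio of shares was 0.546. More PETs in the control than in the senescent library before scaling, as at COL1A2, was found for 2.23%. Tiles with a ratio as low as that of COL1A2 are among these and were not counted apart. In tiles of 200 kb, close to the width of the COL5A1 window, 47.2% had no control PET, so its empty control side was a common state.

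COL1A1 was among the fuller sites of the senescent library and COL1A2 among those of the control library. Of 26504 tiles of 60 kb with any PET, 253 (0.955%) held at least 79 senescent PETs. Of those 253, 176 (69.6%) held no more than the 1 control PET of COL1A1. At least 14 control PETs, the COL1A2 value, were held by 224 tiles (0.845%). Those 224 tiles had a median of 30 senescent PETs, 24 of them (10.7%) had 7 or fewer, as COL1A2 did, and 36.6% had more control than senescent PETs. An unscaled control excess of any size was thus not rare among tiles as full in control as COL1A2. How many had an excess as large as its 14 against 7 was not counted. For COL5A1, 381 of 10169 tiles of 200 kb (3.75%) held at least 109 senescent PETs.

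**Figure D2:**
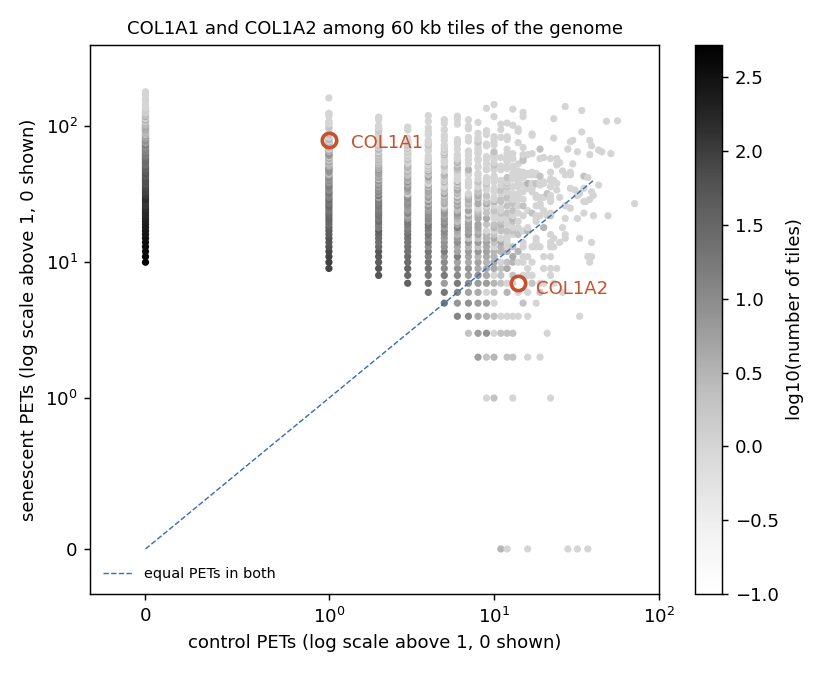
Control PETs (x axis) and senescent PETs (y axis) of each 60 kb tile with at least 10 PETs in sum, both axes logarithmic above 1, with the shade giving the number of tiles and the dashed line equal PETs. COL1A1 (1 and 79) lies high at the left, and COL1A2 (14 and 7) lies under the line with 2.23% of tiles.

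Per 10 kb of window, the senescent library held 13.2 PETs at COL1A1, 5.19 at COL5A1 and 1.17 at COL1A2. In the control library the order by PETs per 10 kb was COL1A2 (2.33), COL1A1 (0.167) and COL5A1 (listed at 0). COL1A2 thus stood first in the control and last in the senescent library.

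At COL1A1, the senescent contacts were gathered on 1 broad anchor. This anchor, chr17:48249557-48291503, was 41.9 kb wide and covered 69.9% of the window. RefSeq gives COL1A1 a length of 17.5 kb in GRCh38, longer than the 9556 bp and 8497 bp of the window to either side of the anchor. If the gene lies whole within the window and has a like length in hg19, at least 7975 bp of it lie under this anchor wherever it is placed. Of 72944 senescent anchors only 3, this one included, were as wide, and the median anchor was 2927 bp.

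The broad COL1A1 anchor had 27 partners and 54 PETs, 68.4% of the PETs of the locus. A senescent anchor had a median of 3 partners, and 57 anchors (0.0781%) had at least 27. The other COL1A1 anchors had 9, 8 and 7 partners and 12, 12 and 14 PETs. The one with 9 partners, chr17:48237235-48240048, lay almost wholly below the window and covered 0.08% of it. Per kb of anchor the broad anchor was the lowest of the 4, with 1.29 PETs against 2.79 to 4.26, and it was the widest. When interactions with an anchor wider than 10 kb were left out, 17 senescent PETs remained at the locus.

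The COL1A1 contacts with at least 5 PETs ran to the side of higher coordinates, and those with 4 PETs to the other side. With 6 PETs, the first joined chr17:48295154-48300177 and chr17:48340237-48353442, which lay 49.2 kb apart. The broad anchor was joined to the same 13.2 kb site by 5 PETs over 76.3 kb, which was the contact with the smallest deposited significance value at the locus (4.36e-09). The broad anchor was also joined to chr17:48222577-48234812, on the other side, by 4 PETs over 41.8 kb. On that side it was joined by 4 PETs each to chr17:48237235-48240048 and chr17:48245074-48248611 as well.

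Outside the window, the COL1A1 anchors reached 31 partner sites, with 19 contacts (27 PETs) to lower and 22 contacts (39 PETs) to higher coordinates. Some sites were reached by several anchors of the locus: chr17:48380774-48390753 was joined to all 4 and by 7 PETs. The site at chr17:48340237-48353442 was joined to 2 of them and by 11 PETs, the most of any partner site outside the COL1A1 window. The nearest protein-coding genes in RefSeq order are SGCA, which encodes a sarcoglycan of muscle membranes, and PPP1R9B on the lower side, and TMEM92 and XYLT2, a xylosyltransferase that starts proteoglycan sugar chains, on the higher side. No annotation in hg19 was used, so no partner site is assigned to a gene. The window is 42.5 kb longer than COL1A1, and whether it takes in SGCA or another neighbour was not checked. The anchors and PETs of the locus may thus include those of a neighbouring gene.

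Repeated senescent contacts of COL1A1 lay mostly at wide anchors. Of the 46 contacts, 14 (30.4%, 17.7 to 45.8%, exact Clopper-Pearson interval) had at least 2 PETs and 11 had at least 3. Of the 99 at COL5A1, 9 (9.09%, 4.24 to 16.6%) had at least 2. Contacts of a locus share anchors, so that these intervals treat as separate what is partly joint. An anchor over 10 kb took part in 13 of the 14 repeated contacts of COL1A1 and in 5 of the 9 of COL5A1. Among contacts with no such anchor, 1 of 16 at COL1A1 (6.25%, 0.158 to 30.2%) and 4 of 58 at COL5A1 (6.90%, 1.91 to 16.7%) had at least 2 PETs, so the shares were then close.

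The single control contact of COL1A1 joined chr17:48286373-48289270 and chr17:48294841-48298661, 8.93 kb apart, by 1 PET. It had a senescent counterpart of 3 PETs between the broad anchor and chr17:48295154-48300177. No other control anchor was listed within 1015 kb below or 644 kb above the window. In the 500 kb on either side, interactions that did not touch the window numbered 147 and 170 among senescent contacts and 0 among control contacts. The scarcity of control contacts thus extended well beyond COL1A1.

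**Figure D3:**
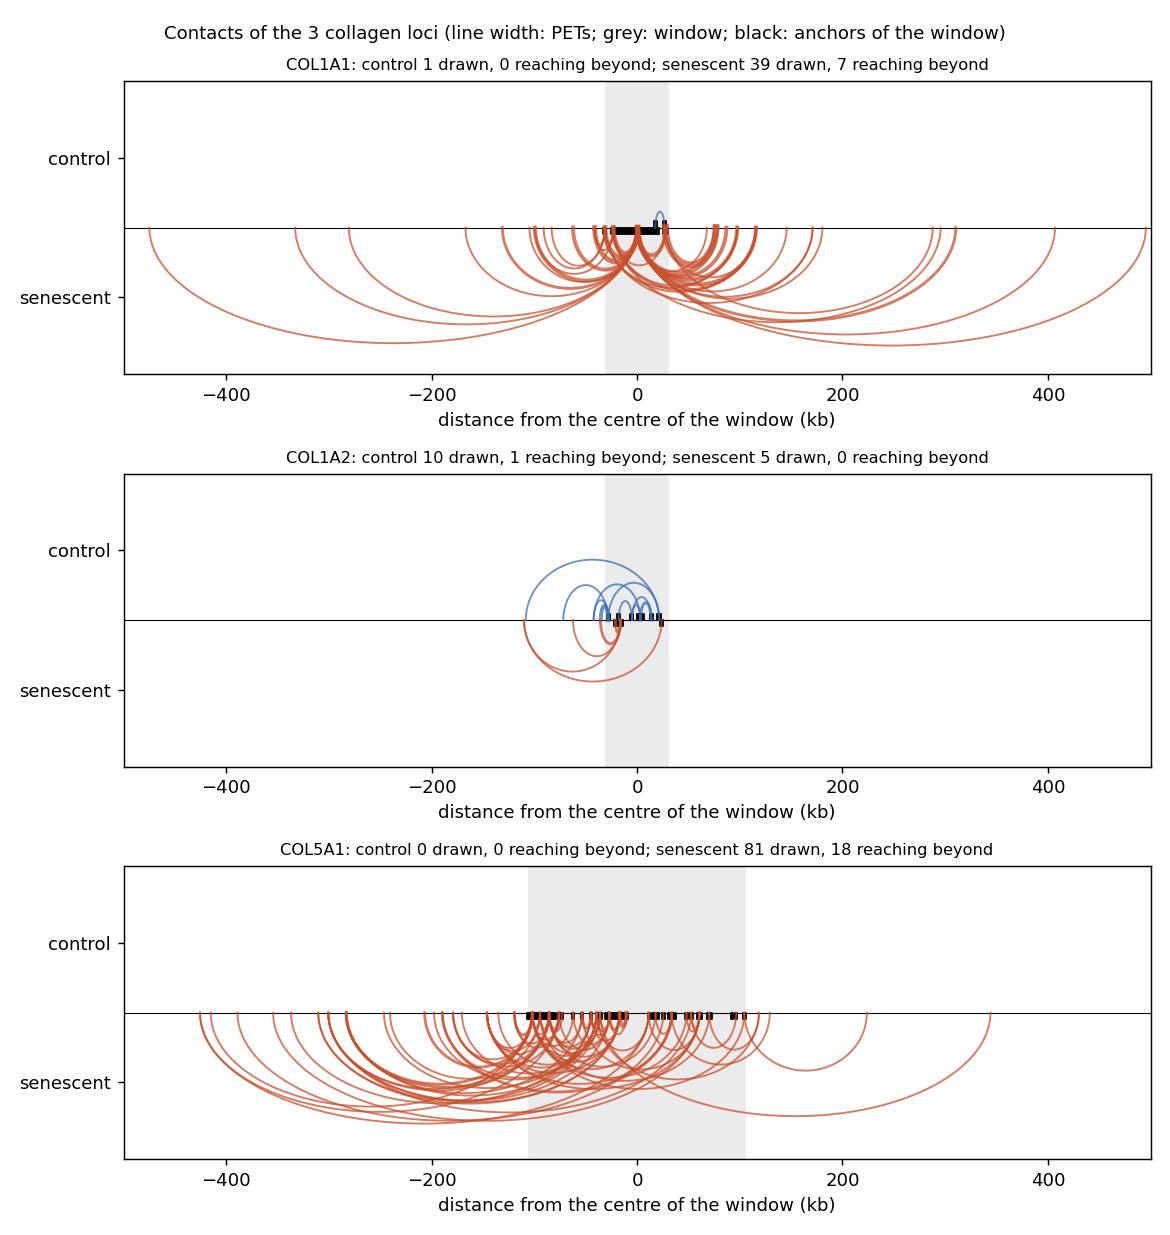
Contacts of COL1A1, COL1A2 and COL5A1 by distance from the centre of each window in kb, with control contacts above the line and senescent contacts below; each arc is 1 interaction, its height grows with the square root of its span, its line width with its PETs, and black blocks are anchors of the window (grey). Contacts that reach beyond 500 kb are counted in the panel titles and not drawn: 7 senescent at COL1A1, 1 control at COL1A2 and 18 senescent at COL5A1.

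At COL1A2 the control contacts were spread over the window, and 6 of the 11 spanned under 20 kb. They used 6 anchors of 2.41 to 6.73 kb, which covered 36.1% of the window, and none was wider than 10 kb. The anchor chr7:94010584-94013218 had the most partners, 4, with 6 of the 14 PETs. The contact with the most PETs, 3, joined it to chr7:94002937-94006424 over 7.22 kb. The next, with 2 PETs, joined chr7:94039805-94046533 and chr7:94052191-94055557 over 10.7 kb, and the other 9 contacts had 1 PET each. Of the 11 contacts, 5 had both ends in the window, 5 ran to lower coordinates and 1 ran to higher coordinates, over 1000.5 kb to chr7:95052843-95055903.

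The senescent COL1A2 contacts were fewer and shared part of their sites with the control library. They used 3 anchors that covered 16.6% of the window, and 2 of the 3 overlapped a control anchor. The anchor chr7:94021325-94026670 held 4 of the 5 contacts and 6 of the 7 PETs. Its contacts were with chr7:94002303-94006424 and with chr7:94017698-94019998, by 2 PETs each over 19.6 and 5.15 kb, and with sites 46.4 and 94.05 kb below by 1 PET each. This anchor overlapped the control anchor chr7:94020850-94023260, and its partner chr7:94002303-94006424 overlapped the partner of the strongest control contact.

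The libraries differed in the middle of the COL1A2 window. RefSeq gives the gene a length of 36.3 kb in GRCh38, so a gene of that length in the window must cover chr7:94033668-94046333. Control anchors overlapped that stretch at chr7:94033495-94036491 and chr7:94039805-94046533, with 3 and 4 PETs. The senescent anchors of the window all lay outside it. With 7 senescent PETs in all, a contact missed by counting is not told apart from a contact that was not there.

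Only 1 of the 11 control contacts of COL1A2 (9.09%, 0.230 to 41.3%) had a senescent counterpart. In the control library it joined chr7:93929033-93934214 and chr7:94059858-94063407 over 130.01 kb, and in the senescent library chr7:93925287-93934605 and chr7:94062792-94065113 over 134.01 kb, by 1 PET in each. The anchors at the gene end shared 616 bp, and no counterpart was left when the overlap had to reach 50% of the narrower anchor. Of the 6 control anchors in the window, 2 overlapped a senescent anchor.

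On the side of lower coordinates, the surroundings of COL1A2 also had a lower senescent share. In the 500 kb of lower coordinates the control library listed 17 PETs outside the locus and the senescent library 54, a ratio of shares of 0.248 (0.142 to 0.456). In the 500 kb of higher coordinates they listed 1 and 6 PETs, a ratio of 0.468 (0.0568 to 21.5), whose interval held 1 and which was close to the median of the tiles. The ratio at COL1A2 itself was 0.0390 (0.0133 to 0.103). It was 0.0698 (0.0341 to 0.142) in the wider window and 0.0546 (0.0108 to 0.253) for contacts of at least 2 PETs. The last 2 intervals met that of the lower side, the first of them only at its edge. The lower side was not recomputed with these settings, and the wider window takes in part of it, so the comparison is not like for like. Before scaling, the flank of lower coordinates had more PETs in the senescent library and the locus had fewer. In RefSeq order GNG11 and BET1, a protein of transport between the endoplasmic reticulum and the Golgi, precede COL1A2, and CASD1 and SGCE, another sarcoglycan, follow it.

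COL5A1 had no anchor in the control table and a chain of anchors in the senescent table. The 24 senescent anchors covered 47.8% of the window, with a median width of 2672.5 bp and 2 wider than 10 kb. Both wide anchors lay near the lower edge of the window, at chr9:137527621-137538444 (10.8 kb) and chr9:137542707-137556029 (13.3 kb). They had 17 and 18 partners and 20 PETs each, the most of any COL5A1 anchor. A gene of the 203.04 kb that RefSeq gives COL5A1 in GRCh38, on the plus strand, can start only between chr9:137530001 and 137536960 if it lies whole in the window, and the first of these anchors covers that stretch.

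The promoter of COL5A1 is shown because the anchor at the start of the gene was among those with the most PETs. The sequence holds the 250 bases before the start of the gene in RefSeq, chr9:134641553-134641802 of GRCh38.p14, plus strand, and of the 3 genes only COL5A1 was matched in the promoter table. Capitals mark the MboI site GATC, the sequence cut in the HiChIP protocol, and the GC box GGGCGG on either strand.

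COL5A1 promoter: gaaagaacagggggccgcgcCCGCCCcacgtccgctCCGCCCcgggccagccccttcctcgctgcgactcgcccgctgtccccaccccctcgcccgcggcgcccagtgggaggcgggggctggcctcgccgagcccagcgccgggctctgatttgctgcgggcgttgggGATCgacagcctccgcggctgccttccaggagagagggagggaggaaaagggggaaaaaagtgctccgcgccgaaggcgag

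This promoter held 1 MboI site and 2 GC boxes, both of the latter on the opposite strand. Among 35116 RefSeq promoters of the same length, 35.8% held an MboI site and 42.6% a GC box on either strand. Neither the letters CCAAT (in 32.01% of promoters) nor TATAAA (in 10.7%) were found on either strand. Its 29 CpG dinucleotides compare with a median of 11, and 14.1% of promoters had at least as many. These matches describe the letters only and are no measure of binding.

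The contacts of COL5A1 thinned out along the gene. The lower 70 kb of the window had 77 senescent PETs (60.8 to 96.2), the middle 70 kb had 38 (26.9 to 52.2) and the upper 70 kb had 20 (12.2 to 30.9), with a contact between parts counted in each. Away from the wide anchors, a narrow anchor of 1.91 kb at chr9:137594696-137596602 had 13 partners and 13 PETs. At 6.82 PETs per kb of anchor it stood above the 2 wide anchors, which had 1.85 and 1.501. Of its 13 contacts, 9 left the window.

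**Figure D4:**
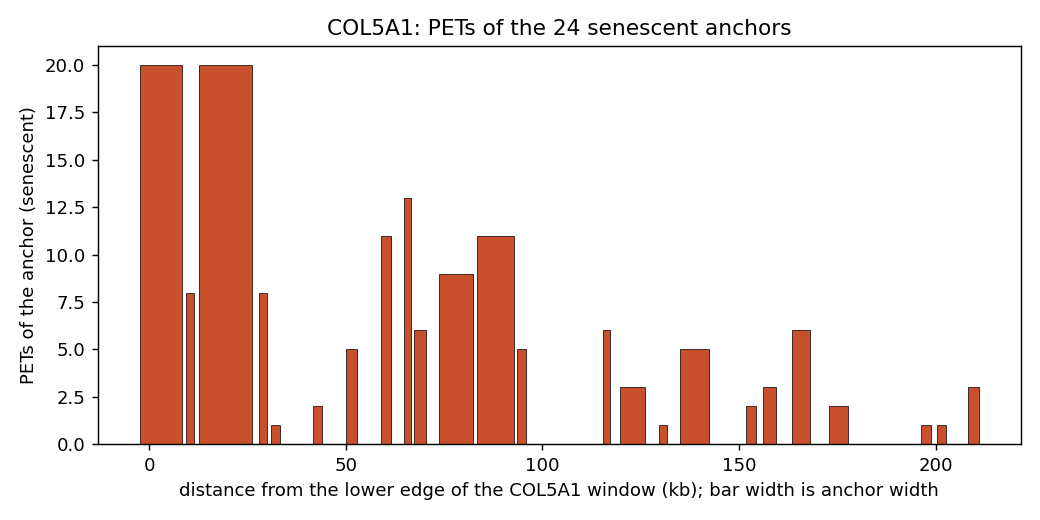
PETs of each of the 24 senescent anchors of COL5A1 (y axis) by distance from the lower edge of the window in kb (x axis), with the width of a bar giving the width of the anchor. The 2 wide anchors near the lower edge reach 20 PETs each, and the anchors of the upper 70 kb stay at 6 or fewer.

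The COL5A1 contacts were many and single. Of 99, 90 had 1 PET, 8 had 2, and 1 had 3. The contact with 3 PETs joined the neighbouring anchors chr9:137613279-137622712 and chr9:137623464-137625792, which were 6.63 kb apart. The contacts with 2 PETs and the smallest deposited values were longer: chr9:137442796-137447947 with chr9:137664928-137672508 over 223 kb (1.04e-04), and chr9:137344670-137358884 with the second wide anchor over 198 kb (1.21e-04).

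Contacts of COL5A1 that left the window ran mostly to lower coordinates. There were 47 contacts (52 PETs) to that side and 14 (14 PETs) to the other, while 38 contacts (43 PETs) had both ends in the window. The side of lower coordinates was also the fuller one outside the locus, with 138 senescent PETs within 500 kb against 44 on the other side. The partner site joined to the most COL5A1 anchors, 7, was chr9:137481320-137496549, 33.5 kb below the window. Next came chr9:137331885-137336763, joined to 5 anchors, and chr9:137344670-137358884, joined to 4 by 6 PETs. In RefSeq order the protein-coding genes on that side are RXRA, which encodes a retinoid receptor, and WDR5, a subunit of histone methyltransferase complexes, and on the other side FCN2 and FCN1, lectins of innate immunity.

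The control table was empty around COL5A1. It listed no contact within 500 kb on either side, its nearest anchor below lay 2370 kb from the window, and it listed none above it on chromosome 9. In the same table chromosome 9 held 467 PETs, against 7955 in the senescent table.

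The spans of the contacts overlapped between the loci. In senescent cells the median span was 130 kb at COL1A1 (8.20 to 1000.2 kb, lowest to highest) and 119 kb at COL5A1 (5.41 to 1638 kb). Control contacts of COL1A2 had a median of 18.9 kb (7.22 to 1000.5 kb), and its senescent contacts had 46.4 kb (5.15 to 134 kb). Contacts under 20 kb made up 6 of 11 at COL1A2 in control, 2 of 5 there in senescent cells, 3 of 46 at COL1A1 and 18 of 99 at COL5A1. With order-statistic intervals the medians were 130 kb (86.4 to 202) at COL1A1, 119 kb (85 to 181) at COL5A1 and 18.9 kb (8.18 to 130) at COL1A2 in control, which overlapped. With 5 senescent contacts at COL1A2, the interval is the whole range. Overlap of such intervals cannot show that reach was alike, and a difference in span between loci or libraries was not tested.

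Contacts of at least 500 kb were single ones. At COL1A1, 7 senescent contacts spanned at least 500 kb, and the longest joined the broad anchor to chr17:47266976-47273604 by 1 PET. At COL5A1, 17 spanned at least 500 kb and 7 at least 1 Mb, the longest of them joining chr9:136088388-136090658 and chr9:137726204-137728746. Contacts with at least 2 PETs had a median span of 81.4 kb at COL1A1 and 17.5 kb at COL5A1, while those with 1 PET had 175 and 130 kb. The order-statistic intervals of the first 2 medians were wide, 31.9 to 132 kb and 8.77 to 198 kb. Repeated contacts reached 310 kb at COL1A1 and 223 kb at COL5A1.

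**Figure D5:**
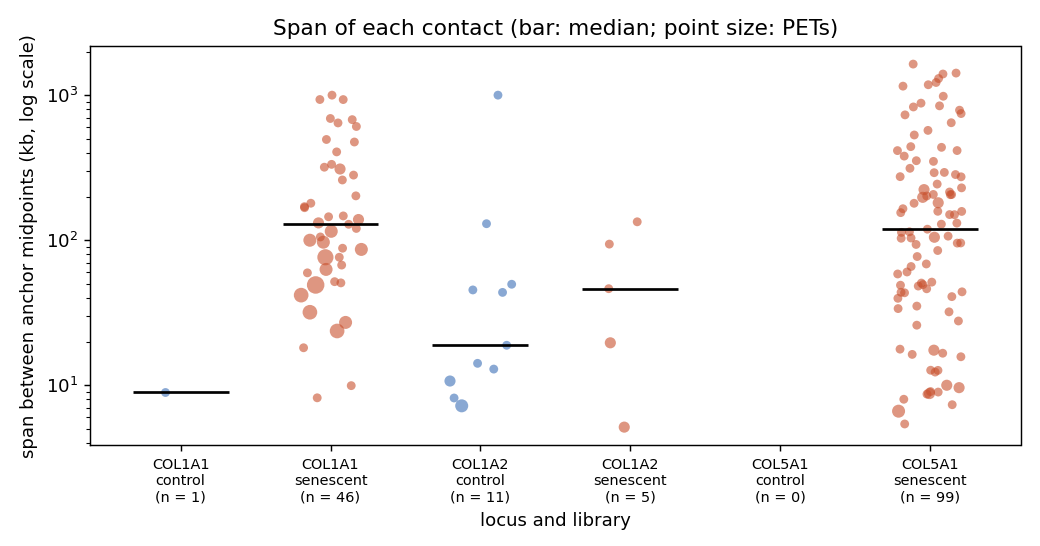
Span between anchor midpoints in kb (y axis, log scale) of each contact by locus and library, with point size giving PETs and the bar the median. Senescent COL1A1 and COL5A1 contacts centre on 130 and 119 kb, the 11 control contacts of COL1A2 on 18.9 kb, and no control contact is listed at COL5A1.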

How the data were processed

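The authors deposited 1 table per library, with no header, with the coordinates of each anchor pair, a whole number and a last value between 0 and 0.564. The whole number was taken as the count of PETs deposited by the authors, and the last value as the p-value or q-value they deposited, which of these is not stated. HiC-Pro 3.1.0 and build hg19 are named per the submitters' processing notes. The caller, the source of anchors and any duplicate filter are not stated there. Only joined anchors are listed, so an absent contact sets no upper limit.

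Contacts overlapping each window by at least 1 bp were counted with Python 3.11.15, pandas 2.3.3 and scipy 1.17.1, and scaled to the PETs of the table. Spans are between anchor midpoints; a counterpart has both anchors overlapping. Tile sums and ratio intervals were tested on simulated data. Per locus and library, the contacts named were the 3 with the most PETs (ties by deposited value, then span), the longest, those with a counterpart, and the anchor with the most partners; other anchors and partner sites were named after their values were seen. Loci, windows and lists were chosen with earlier results of these data known. A list of collagen processing genes was not analysed here, as no annotation in hg19 was used; RefSeq GRCh38 gave gene lengths and order only. Coordinates are 1-based.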

Additional observations from a re-analysis of the deposited data

How the results depend on the processing

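No paired analysis was possible because each group had 1 library, and leaving out a replicate was not run. Of 173 values recomputed with other settings, 125 stayed and 48 moved. To stay, PETs and ratios had to lie within the counting error of the main value, and other counts and shares within 1.5 times. Median spans had to lie within the order-statistic interval of the main median. For senescent COL1A2 that interval is the whole range of its contacts, 5.15 to 134 kb, so its median could hardly move. The 125 include COL5A1 control counts of 0, which a filter of contacts leaves at 0. Only the ratios of COL1A1 and COL1A2 have a direction, and none of them changed it. The lowest COL1A1 ratio was 1.59 (0.249 to 66.5), without anchors over 10 kb. The highest COL1A2 ratio was 0.50 (0.171 to 1.32), unscaled. Both of these intervals held 1. Where the control library had no PETs, no ratio was formed (COL5A1 throughout, and COL1A1 for contacts of at least 2 PETs, of at least 20 kb, or with a deposited value at or under 0.05).

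With contacts of at least 2 PETs, COL1A1 kept 0 control PETs and 47 senescent PETs in 14 interactions (median span 81.4 kb), COL1A2 kept 5 control PETs in 2 interactions and 4 senescent PETs in 2, and COL5A1 kept 19 senescent PETs in 9 (17.5 kb). With spans of at least 20 kb, COL1A1 had 0 control PETs, COL1A2 5 control PETs in 5 interactions and 3 senescent interactions, and COL5A1 85 senescent PETs. Without anchors over 10 kb, COL1A1 had 17 senescent PETs in 16 interactions and COL5A1 63 in 58. With deposited values at or under 0.05, COL1A1 had 0 control PETs, COL1A2 2 PETs in 2 interactions in each library (control median span 565 kb), and COL5A1 65 senescent PETs in 61 (244 kb). Windows 20 kb wider on each side gave 100 senescent PETs at COL1A1 and 17 in 14 interactions at COL1A2, against 19 control PETs; windows 10 kb narrower gave 54 in 27 at COL1A1. These settings remove or add contacts by construction.

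The COL1A2 ratio was 0.50 unscaled and 0.439 scaled to PETs between shared anchors, and 0.0390 to 0.0698 otherwise. Its control contacts with a counterpart numbered 3 for anchors within 5 kb, 2 in the wider window, and 0 for an overlap of 50% or for at least 2 PETs; at COL1A1 the single one was lost (0) in the 4 filters of contacts. Tiles with PETs in both libraries and a share at least 2-fold higher in senescent cells were 7.83% with at least 20 PETs and 10.3% at 200 kb. The few PETs of COL1A2 and of the control side limit every comparison there.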
